A study of Mus musculus with 12 samples.

Results

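M200003525 is a 60-base probe on a mouse expression array, assigned to Trex1 by the translation of its sequence. It was chosen by its name, 1 probe of the 35852 mouse probes on the array, because earlier results of these arrays had shown it far lower in spleens that carry mutant TREX1. The values that chose it are therefore a description here and carry no test. The array files give no gene names, and no TREX1 sequence was in the tables used here, so the assignment to Trex1 was not recomputed. It has 1 sense reading frame of 3 without a stop codon.

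TREX1 is the main DNA exonuclease of mammalian cells. It removes DNA from the cytosol, where such DNA would otherwise activate the sensor cGAS, the adaptor STING and the type I interferons, and its C-terminal tail holds it at the endoplasmic reticulum. Frameshifts in that tail leave the catalytic part of the protein in place. V235fs is the commonest mutation of retinal vasculopathy with cerebral leukodystrophy, a disease of small vessels, and D272fs was found in a patient with lupus. By the same assignment, which was not recomputed, the stretch that the probe reads lies in the catalytic part, before both frameshifts.

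Total RNA came from the spleen of C57BL6 mice in 3 groups: mice with a knock-in of human TREX1 carrying V235fs (4 arrays), mice with the corresponding D272fs knock-in (4 arrays), and controls (4 arrays). Per the labels both mutations were expressed conditionally; the labels used here give neither the Cre line or promoter, nor the ages, nor how the mouse Trex1 gene was altered, nor whether the controls carried an unexpressed allele. Spleen cDNA was in Cy3 and the same universal reference RNA in Cy5 on every array, without a dye swap. Nothing says that the 4 samples of a group were separate animals, so the errors below may be technical.

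The 60 bases of the Trex1 probe are shown first, because every value below is the signal of this sequence, and below them those of M300004718, a second probe at the locus that the rule did not use. In the RefSeq table of start-site windows (GRCm38.p6) the second probe lay whole inside 1 of the 2 windows listed for Trex1, at chr9:109059793-109059852, on the strand of Trex1 and 129 to 70 bases before that start.
M200003525: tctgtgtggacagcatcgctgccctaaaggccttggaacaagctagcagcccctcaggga
M300004718: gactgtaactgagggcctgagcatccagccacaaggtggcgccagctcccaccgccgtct
Both are rich in G and C (58.3% and 65.0%, against a median of 48.3% over the 60-base mouse probes). The longest run of bases that M200003525 shared with any other mouse probe, on either strand, was 13, with 1 probe, and M300004718 shared at most 14 with another.

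The window around that start is printed to show how close the second probe is to Trex1, with its 60 bases in capitals; the window, chr9:109059674-109059973 on the minus strand, ends 50 bases past the start.
Trex1 window: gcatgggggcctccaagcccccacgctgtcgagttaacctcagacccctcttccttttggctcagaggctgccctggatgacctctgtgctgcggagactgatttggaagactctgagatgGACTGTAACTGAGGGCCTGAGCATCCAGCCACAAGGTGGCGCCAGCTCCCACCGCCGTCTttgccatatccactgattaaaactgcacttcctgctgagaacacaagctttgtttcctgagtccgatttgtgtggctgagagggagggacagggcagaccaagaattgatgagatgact
By the same gene table the second probe also falls inside the span of Atrip, the partner of the checkpoint kinase ATR, which is the next coding gene on that side of Trex1 and lies on the same strand. Because the second probe lies before that Trex1 start, a transcript that begins there does not hold its bases. Which transcript the second probe reads was not tested. Whole matches to any start-site window were rare, at 254 of the 35852 mouse probes.

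In the control spleens the Trex1 probe was bright in Cy3, the spleen dye. Its mean spot signal was 1148, 663, 1553 and 852 on control replicates 1 to 4, over local backgrounds of 23.5, 32.0, 29.0 and 26.0. After subtraction of the local background it stood at the 83.6th, 77.8th, 78.9th and 80.6th percentile of the mouse spots of each array. The spot was thus among the brighter ones on the control arrays, although the signals of different probes cannot be set against each other as amounts of RNA. Spleen is a bulk tissue, and fewer cells that express a gene and less of its RNA per cell cannot be told apart.

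In V235fs spleens the same spot read 64.2, 70.3, 63.9 and 61.8 on replicates 1 to 4, over local backgrounds between 22.5 and 27.0. Its percentile among the mouse spots was 33.8 ± 3.1 (SD, n = 4), against 80.3 ± 2.5 in the controls (SD, n = 4). Every V235fs array lay below every control array in signal and in percentile. How many of all probes had such a gap in raw Cy3 signal or percentile was not counted.

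D272fs spleens gave 73.2, 67.9, 68.6 and 81.3, over backgrounds between 23.0 and 26.5. The percentile was 37.0 ± 2.9 (SD, n = 4). These arrays too lay wholly below the controls, and their range overlapped that of V235fs. For D272fs, too, the share of all probes with such a gap from the controls in these measures was not counted.

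The reference dye shows what the spot itself could read, because the same RNA was in Cy5 throughout. Its mean signal there was 604, 602, 600 and 589 on the V235fs arrays, 505, 524, 496 and 489 on the D272fs arrays, and 590, 714, 759 and 393 on the controls. The spot was well above background in Cy5 on all 12 arrays, and its percentile among the mouse spots in that dye stayed between 68.1 and 72.9. The D272fs arrays were below the V235fs arrays in this dye without overlap, and the control arrays spanned both. The share of all probes with such a gap in raw Cy5 signal was not counted.

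The spleen signal of the knock-in arrays was low but not at the level of empty spots. Feature Extraction, the scanner software, marked the probe as well above background in Cy3 on 12 of 12 arrays, and it was saturated on none of them. The 153 negative control spots, which are designed to bind no transcript, averaged between 20.2 and 21.9 over local background on the 8 knock-in arrays. The Trex1 probe exceeded that average by 16.1, 24.8, 18.5 and 18.9 on V235fs replicates 1 to 4 and by 26.5, 20.6, 23.6 and 36.7 on D272fs replicates 1 to 4. On the controls the excess was 1105, 590, 1478 and 802. On V235fs replicates 3 and 4, 1 of the 153 negative control spots was at or above the probe, and on the other 6 knock-in arrays 0 were. The files do not show what gave the remaining signal. Whether the human knock-in message or other RNA binds this mouse probe was not tested.

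Because Cy3 brightness differs between arrays, the comparison between groups was made on the log2 ratio of spleen over reference after normexp background correction (offset 50) and loess normalisation. The ratio was 1.58, 0.93, 1.19 and 1.20 on control replicates 1 to 4. In V235fs it was −2.29, −2.18, −2.29 and −1.88. In D272fs it was −1.93, −2.06, −0.38 and −1.75. Neither knock-in group overlapped the controls, and D272fs replicate 3 stood well above the other 7 knock-in arrays.

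The mean ratio was 1.23 ± 0.27 in control, −2.16 ± 0.19 in V235fs and −1.53 ± 0.78 in D272fs (SD, n = 4 each). V235fs was lower than control by a log2 difference of −3.39 (SE 0.31), a 10.5-fold lower ratio, and D272fs by −2.75 (SE 0.31), a 6.75-fold lower ratio. Of the 26502 probes tested, M200003525 had the most negative difference in both comparisons, which share the 4 control arrays. These differences chose the probe and are given without a test. For scale, 225 probes (0.849%) passed a limma adjusted p of 0.05 between V235fs and control and 20 (0.0755%) between D272fs and control, and 7.1% and 4.89% of probes had every knock-in array below every control array.

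The size of the fall depended on how the dim knock-in spots were treated, since an added offset pulls low ratios towards 0. With an offset of 0 the differences were −4.52 for V235fs and −3.57 for D272fs. Agilent's own processed ratios gave −5.32 (SE 0.21) and −4.81 (SE 0.21), or 40.0-fold and 28.1-fold. In those processed values the deposited log10 ratio of reference over spleen was 1.26, 1.12, 1.26 and 1.26 in V235fs, 1.07, 1.20, 1.12 and 0.893 in D272fs, and −0.469, −0.286, −0.348 and −0.406 in the controls. The direction was the same in every setting run, and the fold is known only as a range.

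D272fs replicate 3 differed from its group in the normexp ratio but not in its raw signal, which was 68.6 against 67.9 to 81.3 on the other D272fs arrays. The background that normexp estimated for Cy3 on that array was −391.71 (SD 570.48), against 12.3 to 14.3 on the other 3 D272fs arrays. Its negative control spots averaged 21.9. When the background was instead estimated from those spots, the ratio of this array was −2.0, beside −2.05, −2.17 and −1.84 for the others. The group means were then 1.24 ± 0.26 in control, −2.39 ± 0.07 in V235fs and −2.01 ± 0.13 in D272fs (SD, n = 4 each). Without D272fs replicate 3 the fall from control in D272fs was −3.14 (SE 0.15) with the normexp background, 8.80-fold. V235fs replicate 4, the highest V235fs array, also had a normexp background below 0 (−21.6, against 13.4 to 14.1 on the other 3), and its ratio was −2.42 with the background from negative control spots.

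The knock-ins were also compared with each other, a contrast that did not itself choose the probe, although the arrays of both knock-in groups entered the choice, so its p is not independent of it. V235fs was lower than D272fs by a log2 difference of −0.63 (SE 0.31, 95% interval −1.31 to 0.04, limma adjusted p = 0.448), which did not pass the threshold; 1 of 26502 probes did (0.00377%). The difference was −0.25 without D272fs replicate 3 (SE 0.15, limma adjusted p = 0.555) and −0.37 with the negative control background (SE 0.12, limma adjusted p = 0.160). In the Cy3 channel alone, quantile-normalised without the reference, it was −0.07 (limma adjusted p = 0.756). The interval is that of the normexp fit with D272fs replicate 3 included, where the SE was larger than in the first 2 of these settings. It reaches from a V235fs level well below that of D272fs to a level slightly above it. None of these settings passed the threshold after adjustment over all probes, so a difference between the mutations was not resolved. With the normexp background, 2.3% of probes had every V235fs array below every D272fs array. M200003525 was not one of them, since its ranges overlapped. With the negative control background its ranges did not overlap (−2.43 to −2.29 in V235fs, −2.17 to −1.84 in D272fs). The share of all probes with such a gap under that background was not counted, and the 2.3% does not apply to it.

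The loess-normalised ratio was also split into its 2 channels, after the average intensity of the dyes was made alike across arrays, so that these levels differ by the ratio given above. The Cy3 signal was 10.12 ± 0.35 in control, 6.94 ± 0.10 in V235fs and 7.24 ± 0.68 in D272fs on the log2 scale (SD, n = 4 each). The Cy5 signal was 8.89 ± 0.11, 9.10 ± 0.11 and 8.77 ± 0.11 in the same order. The knock-in groups were far below control in the spleen dye, whereas in the reference dye V235fs was the highest of the 3 groups and D272fs the lowest.

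Slide and scan day could not be told apart from the genotypes. The V235fs arrays shared 1 slide and the D272fs arrays a second one, and these were scanned on the same day. The controls were spread over 3 other slides, scanned on 2 other days. Controls of one day had ratios of 1.58 and 1.20 (replicates 1 and 4), and those of the other 0.93 and 1.19 (replicates 2 and 3). When slide, or scan day, entered as a random block, the V235fs difference was −3.39 with an SE of 0.34 or 0.35, and that of D272fs was −2.76 or −2.75. Such a block cannot separate slide or scan day from genotype in this layout.

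The second probe at the locus, M300004718, gave a readout beside Trex1 that the choice of M200003525 did not use. Its Cy3 spot signal was 1524, 1061, 2533 and 905 on control replicates 1 to 4. It was 1127, 1339, 1472 and 1228 in V235fs and 1107, 1041, 1074 and 1070 in D272fs. The control arrays overlapped both knock-in groups. Every D272fs array was below every V235fs array in this raw signal, though not in the ratio given below. The share of all probes with such a gap in raw signal was not counted. The spot was well above background in Cy3 on 12 of 12 arrays.

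Its log2 ratio of spleen over reference was 0.03, −0.13, −0.02 and −0.20 in the controls, 0.08, 0.30, 0.29 and 0.02 in V235fs, and 0.07, 0.05, −0.17 and −0.07 in D272fs. The groups showed no fall like that of M200003525: the difference from control was 0.25 in V235fs (SE 0.09, 95% interval 0.05 to 0.45, limma adjusted p = 0.164) and 0.05 in D272fs (SE 0.09, 95% interval −0.15 to 0.25, limma adjusted p = 0.801). Neither passed the threshold after adjustment over all probes. In the Cy3 channel alone the V235fs difference was 0.46 and passed (limma adjusted p = 0.0228), and with median centring both differences were below 0, at −0.10 and −0.52. V235fs and D272fs differed by 0.20 (SE 0.09, limma adjusted p = 0.414). The upper and lower bounds of these intervals are far from the −3.39 and −2.75 measured at M200003525 on the same arrays.

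The 5 probes whose ratios were most like those of M200003525 over the 12 arrays, by Pearson correlation among the 26502 tested, were M300013406 (r = 0.968), M300003825 (0.953), M200001986 (0.932), M300001033 (0.932) and M200005540 (0.927). The arrays share groups, slides and one reference, so these values describe this set only, and 23 probes reached 0.9. The probes have no gene names in the files. For 4 of the 5 the change was small beside that of the Trex1 probe, from −0.22 to −0.63 in V235fs and from −0.16 to −0.40 in D272fs. The first of them, M300013406, was well above background in Cy3 on 3 control, 1 V235fs and 2 D272fs arrays, and the other 3 on 12 of 12.

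M300001033 was the exception, at 2.52 ± 0.25 in control, 0.13 ± 0.05 in V235fs and 0.13 ± 0.08 in D272fs (SD, n = 4 each). It was well above background on 4 of 4 control arrays but on 0 V235fs arrays and 1 D272fs array, so its low values there were mostly not well above background. Once each group's mean was removed, its correlation with the Trex1 probe was −0.24, whereas that of M300003825 was 0.90 and those of the other 3 were between 0.44 and 0.65. The Trex1 probe deviated most on D272fs replicate 3 (−0.38 against a group mean of −1.53), where the normexp background was −391.71. These correlations give that array the most weight and were not recomputed without it. M300004718 correlated at −0.62 over the 12 arrays.

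Over all mouse probes, 69.1% to 74.9% were well above background in Cy3 on each array, and the median Cy3 spot signal was between 94.3 and 220. The mean correlation of an array with the others of its group was 0.865 for D272fs replicate 3 and between 0.928 and 0.974 for the other 11. Spleen markers, interferon-stimulated genes and the DNA-sensing pathway need gene names for the probes and were not analysed here, so the spleen label was not checked.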

How the data were processed

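Total RNA of 12 spleen samples was hybridised to 2-colour Agilent arrays, grouped by the sample titles (V235fs, D272fs, control). The deposited scanner files hold spot and local background intensity in both dyes, per the file headers (software: Agilent Feature Extraction 11.5.1.1), with processed signals (spatially detrended, background-subtracted, dye-normalised) and their log10 ratio of Cy5 over Cy3. In the authors' value table these log10 ratios recur in rounded form (largest difference 0.005), with column medians between 0 and 0.0035; its scale, centring and direction follow from that comparison. An aligner does not apply; the array grid names build mm8, and RefSeq windows are GRCm38.p6.

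Intensities were background-corrected in limma 3.58.1 (R 4.3.3) by normexp with an offset of 50, loess-normalised within each array (control spots had weight 0), and turned to log2 spleen over reference. Outlier-flagged spots (114 mouse spots, 0 on M200003525) were treated as missing, and replicate spots were averaged. Probes well above background in Cy3 on at least 4 of 12 arrays, with at least 2 values per group, were tested (26502). One mean per group was fitted over the 12 arrays and moderated by empirical Bayes (residual degrees of freedom 9, prior 2.62), with Benjamini-Hochberg adjustment over all probes tested. The fit alone was run on simulated data with independent noise, which had no slide or scan day effects and skipped background correction and normalisation. Probes named were M200003525, any second probe at the locus, and the 5 most correlated probes; gene lists planned were not run for want of gene names. The probe, the lists and the alternatives were chosen with earlier results of these data known, and M300004718 after its sequence was matched. The number of arrays limits the precision.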

Additional observations from a re-analysis of the deposited data

Results flagged for a closer look

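On D272fs replicate 3 the normalised Cy3 signal of M200003525 was 8.25 on the log2 scale, against 6.80 to 6.99 on the other 3 D272fs arrays, a gap of 0.870 of the range of the group. Among the 18 sets of 4 values looked at, this was the 1 such gap, and chance alone flags about 1 in 20. The normexp background estimated on that array was −391.71, and the raw spot signal, 68.6, lay within the range of its group. The sets did not include the deposited ratios or the ratios with the negative control background. In both of these V235fs replicate 2 also stood apart from its group (log10 1.12 against 1.26, and log2 −2.29 against −2.43 to −2.41).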

How the results depend on the processing

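The filters, the scan day and replicate blocks, and the fit of only the groups compared could not change a M200003525 difference from control. Leaving out an array of the other knock-in could not change it either, and the authors' values repeat Agilent's ratios in rounded form. With these included, the fall of M200003525 kept its direction in 28 of 28 alternatives in each knock-in, which is not a count of independent checks. Its log2 difference from control, −3.39 in V235fs and −2.75 in D272fs, was −4.52 and −3.57 with an offset of 0, −5.32 and −4.81 with Agilent's processed ratios or the authors' values, and in V235fs −3.70 without background subtraction, −2.98 with scale normalisation and −3.03 in the Cy3 channel alone. Leaving out 1 array gave −3.48 to −3.27 in V235fs, −3.14 to −2.58 in D272fs and −0.81 to −0.25 between the knock-ins, where the adjusted p was between 0.150 and 0.763 over the 28 alternatives. M300004718, whose alternatives were chosen after seeing the data, fell below 0 with median centring (−0.10 in V235fs, −0.52 in D272fs) and, in D272fs, with scale normalisation (−0.16). A background from negative control spots without D272fs replicate 3 was also added and gave −3.63 and −3.26 for M200003525. The causes were not tested.

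Replicate numbers did not pair the arrays: deviations of same-numbered arrays correlated between −0.51 and 0.35, and at most 3 of 8 arrays in a pair of groups correlated best with their own number. A replicate block left the M200003525 differences at −3.39, −2.75 and −0.63 and lowered the limma calls over all probes from 225 to 15, 20 to 2 and 1 to 0 (V235fs, D272fs, between knock-ins), with 2533 probes at an unadjusted p under 0.05 in the last. The planned counts of listed genes were not run because the probes have no gene names here.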
